A study of Paralichthys olivaceus with 24 samples.

Results

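Of 13028 eligible contig probes on a Japanese flounder array (14052 contig probes in all), 31 had a higher signal after poly(I:C) at 15 °C for 24 h and differed little between poly(I:C) and water in the 3 other settings studied. A contig probe here is one whose target carries a JFC contig code, and it was eligible if, in 1 or more groups, each of the 3 arrays marked its spot well above background. The 31 were chosen by their group means of the authors' log2 values: a poly(I:C) minus water difference of at least 1.5 at 15 °C for 24 h, a 2.83-fold ratio, and a difference below 0.5 in size at 15 °C for 3 h, at 25 °C for 3 h, and at 25 °C for 24 h. These 4 differences chose the probes, so they are given below as a description without a test.

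The series asked how rearing temperature alters the response of the spleen of the flounder Paralichthys olivaceus to poly(I:C). Fish received poly(I:C) or, as the control, DEPC-treated water, and were kept at 15 °C or 25 °C until 3 h or 24 h after the treatment. The 8 groups were poly(I:C) at 15 °C for 3 h, at 15 °C for 24 h, at 25 °C for 3 h and at 25 °C for 24 h, each with its water control, and each held 3 single-colour arrays. Nothing in the labels says whether the 3 arrays of a group came from 3 fish, so p-values reflect only the spread among these samples, which may be technical.

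Poly(I:C) is a synthetic double-stranded RNA that vertebrate cells sense through Toll-like and RIG-I-like receptors as they would a replicating virus, and the outcome is the release of interferons and the induction of interferon-stimulated genes. The spleen is one of the main sites of such responses in bony fish, where it filters blood and holds macrophages and lymphocytes. The body temperature of most fish follows that of the water, and water temperature can affect the pace of a response of this kind.

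The files name the 31 targets by contig code only. In the NCBI gene table for assembly ASM2471397v2, 0 of the 31 and 0 of the 14478 distinct target names on the array were found. The probes are therefore described by code, no function is given to any of them, and neither the labelled tissue nor its cell types could be checked against marker genes. Signals below are log2 values relative to the 75th percentile of their array, a measure of a probe's own level that cannot be set against another probe's level.

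Few probes met such limits in any setting. The same limits found 5 probes raised only at 15 °C for 3 h, 16 raised only at 25 °C for 3 h, and 0 raised only at 25 °C for 24 h. They found 0 probes lowered only at 15 °C for 3 h, 18 at 15 °C for 24 h, 44 at 25 °C for 3 h and 12 at 25 °C for 24 h. Of the eligible probes, 591 (4.54%) had a difference of at least 1.5 at 15 °C for 24 h whatever they did elsewhere, and 4812 stayed below 0.5 in the other 3 settings. Among those 4812 probes, 95 had a difference between 1 and 1.5 at 15 °C for 24 h, 23 between 1.5 and 2, 5 between 2 and 2.5, and 3 between 2.5 and 3. The limits therefore cut through a continuous range: the probes just inside had differences of 1.5 and 1.51 and those just outside 1.49 and 1.46. For the largest difference elsewhere, the values just inside were 0.488 and 0.482 in size and those just outside 0.501 and 0.508.

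The difference at 15 °C for 24 h ran from 1.5 to 2.67 over the 31 probes, with a median of 1.73. With normexp background correction, which adds an offset before the log and here used the median spot signal, the median over the same probes was 0.63. The 3 poly(I:C) arrays lay above the 3 water arrays for each of the 31, which 26.7% of the eligible probes also showed. In spleen RNA, a change in the number of cells of a type and a change in RNA per cell cannot be told apart. The differences elsewhere were centred near 0, with medians of -0.22 at 15 °C for 3 h, 0.04 at 25 °C for 3 h, and -0.19 at 25 °C for 24 h. The corresponding medians over the eligible probes were -0.05, -0.16 and -0.16. The SE of each such difference, from the limma fit described below, ran from 0.14 to 0.84, with a median of 0.30. Some of these differences compare unmeasured signals. With poly(I:C) at 15 °C for 3 h, 15 of the 31 were well above background on all 3 arrays and 7 on none. For signals not well above background, a small difference was not established.

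How well the 31 were measured divided them into sets. Of the 31, 14 were well above background on all 3 water arrays at 15 °C for 24 h, and these 14 were also well above background on all 24 arrays. Another 2 were well above background on 1 or 2 of those water arrays. The remaining 15 were well above background on none of them. They make up 48.4% of the 31, against 20.8% of the 591 probes raised there, 8.07% of the eligible probes and 3.03% of the 4812 that stayed below 0.5 elsewhere. For the 14 fully measured probes poly(I:C) gave 2.85-fold to 4.72-fold the water signal at 15 °C for 24 h.

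For the 15, the ratio has only a lower bound, the mean of the poly(I:C) arrays against, on each water array, either the probe's own signal or the lowest signal called well above background, whichever is higher. These bounds ran from at least 1.05-fold to at least 2.53-fold higher with poly(I:C), with a median of 1.44-fold, and 0 of the 15 bounds reached the limit of 1.5 on the log2 scale. They rest on means of 3 arrays and carry no error. Contig JFC22980_1, among the 15 and named for this reason, was well above background on only 2 of the 3 poly(I:C) arrays. With these 15 at their bounds, the median difference over the 31 was 1.51. The choice fixed this value: all 15 bounds lay below 1.5 and all other differences at or above it. The median is then the smallest difference among the other members, and it says nothing about the 15. The lowest signal called well above background was -5.63 to -4.70 on the poly(I:C) arrays and -4.59 to -4.33 on the water arrays. The share of probes well above background was 83.7% to 94.1% on these poly(I:C) arrays and 78.5% to 84.0% on these water arrays. The part of this difference in detection in the choice of the 15 probes was not tested.

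**Figure D1:**
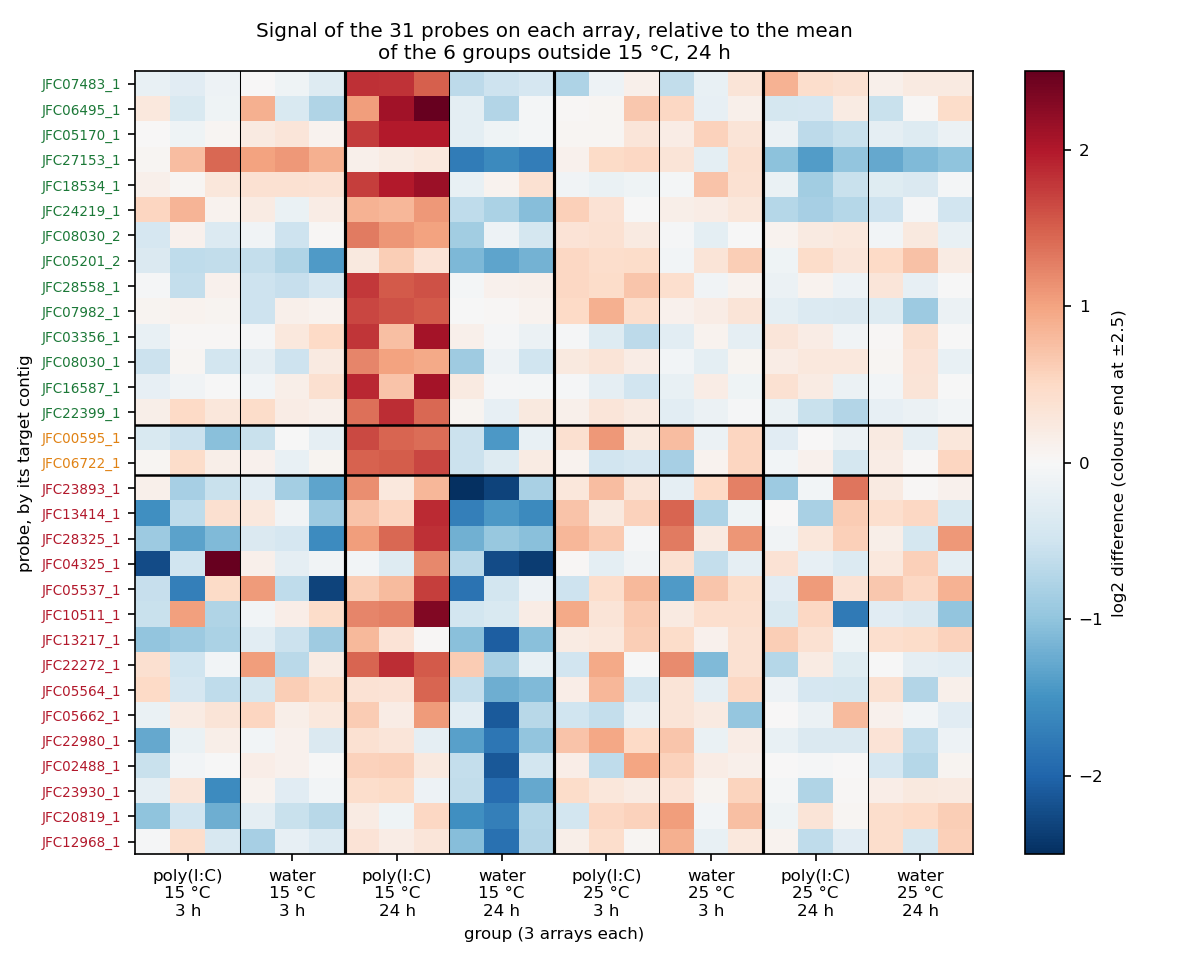
Signal of each of the 31 probes (rows, by contig code) on each of the 24 arrays (columns, 3 per group), as a log2 difference from that probe's mean over the 6 groups outside 15 °C for 24 h. Code colours mark probes well above background on all 3 water arrays at 15 °C for 24 h (green, 14), on 1 or 2 of them (orange, 2) or on none (red, 15). The green rows are mostly red under poly(I:C) at 15 °C for 24 h. In the lower rows, the blue under water there stands for signals not well above background.

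The difference at 15 °C for 24 h is the sum of 2 parts: how far poly(I:C) lay above the mean of the 6 other groups, and how far water lay below it. Among the 14 fully measured probes the first part had a median of 1.55 (0.20 to 1.95) and the second a median of 0.24 (-0.09 to 1.68), and the first was the larger for 12 of the 14. The 15 are not split in this way, since their water level at 15 °C for 24 h was not measured. Over the 10177 contig probes well above background on all 24 arrays these medians were 0.00 and -0.04, and over the 409 of those raised by at least 1.5 at 15 °C for 24 h they were 1.8 and 0.61.

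Poly(I:C) at 15 °C for 24 h had the highest of the 8 group means for 12 of the 14, which 19.6% of the 10177 probes and 64.5% of the 409 also showed. All 3 poly(I:C) arrays lay above the other 21 arrays for 11 of the 14, against 6.77% and 41.1%. Water at 15 °C for 24 h had the lowest group mean for 7 of the 14, against 7.13% and 37.9%. Since the choice used the difference between these groups, the counts describe the 14 and support nothing beyond them. No order of groups is given for the other members, whose levels were not all measured.

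**Figure D2:**
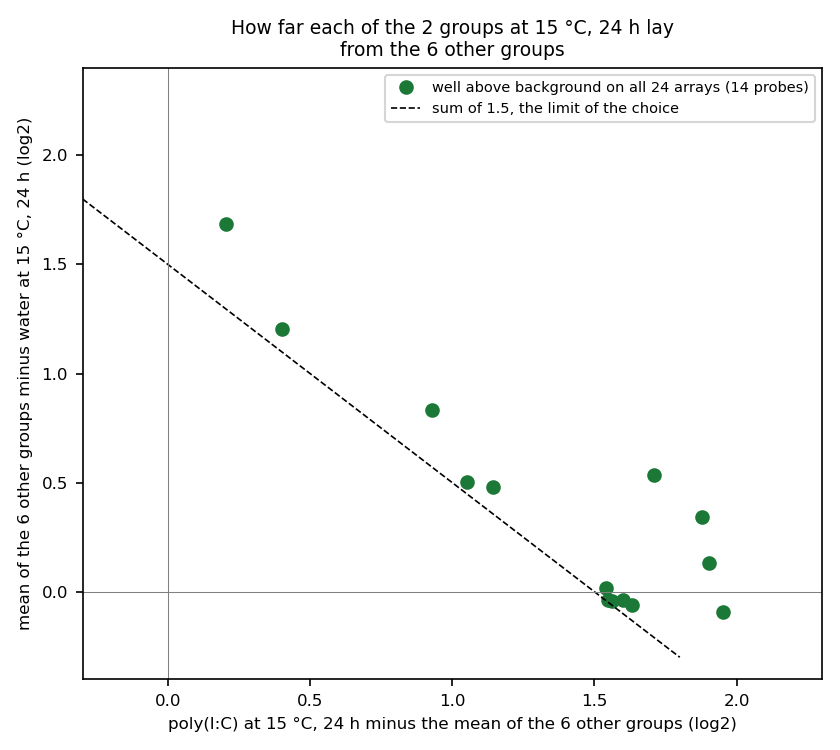
Each point is 1 of the 14 probes well above background on all 24 arrays. The x axis gives how far the mean of poly(I:C) at 15 °C for 24 h lay above the mean of the 6 other groups and the y axis how far water at 15 °C for 24 h lay below it (both log2). The dashed line is a sum of 1.5, the limit of the choice, and most of the points gather at the lower right, with medians of 1.55 on the x axis and 0.24 on the y axis.

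In the median, the 14 varied between arrays about as much as the eligible probes. Their median SD over 3 arrays at 15 °C for 24 h was 0.17 with poly(I:C) (0.06 to 0.74) and 0.15 with water (0.05 to 0.38). Over the eligible probes the median was 0.17 in both groups. Summed up as the median over the 14 probes on each array, the level was 0.47 to 0.65 on the 3 poly(I:C) arrays at 15 °C for 24 h, -1.23 to -1.12 on the water arrays there, and between -1.48 and -0.76 on the other 18 arrays.

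The naming rule took CUST_9219_PI426483990 (contig JFC23893_1) and CUST_12270_PI426483990 (contig JFC13414_1), both among the 15, for the size of their differences at 15 °C for 24 h. With no measured water level these differences have only lower bounds, 1.34 and 0.72 on the log2 scale, below the measured 2.24 of a probe described further on, so their rank is not established. Probe CUST_9219_PI426483990 had signals of -2.70, -3.59 and -3.03 with poly(I:C) there and -6.48, -6.18 and -4.67 with water. The groups did not overlap, but the water arrays were not well above background, so poly(I:C) was at least 2.53-fold higher. Its water means elsewhere were -4.66 at 15 °C for 3 h, -3.34 at 25 °C for 3 h and -3.73 at 25 °C for 24 h, with 2, 3 and 3 arrays well above background.

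Probe CUST_12270_PI426483990 had -4.04, -4.22 and -2.89 with poly(I:C) and -6.46, -6.19 and -6.34 with water at 15 °C for 24 h. Poly(I:C) was at least 1.65-fold higher there. With poly(I:C) at 25 °C for 3 h it had -4.03, -4.52 and -4.17, and the water arrays of that setting had -3.30, -5.53 and -4.85. The highest of those water arrays lay above both replicates 1 and 2 of poly(I:C) at 15 °C for 24 h.

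The fully measured probes below, apart from those under the temperature and time tests, were singled out after their values were seen. Probe CUST_10591_PI426483990 (contig JFC07483_1) had signals of 5.0, 4.97 and 4.65 with poly(I:C) and 2.51, 2.64 and 2.74 with water at 15 °C for 24 h, a difference of 2.24. All 3 poly(I:C) arrays lay above each of the other 21 arrays, the highest of which was 4.03, a poly(I:C) array at 25 °C for 24 h. Its poly(I:C) and water means were 2.97 and 3.02 at 15 °C for 3 h, 2.91 and 3.01 at 25 °C for 3 h, and 3.73 and 3.36 at 25 °C for 24 h. Probe CUST_5262_PI426483990 (contig JFC06495_1) had a similar difference of 2.22 with a wider spread: -0.67, 0.38 and 0.76 with poly(I:C) against -1.97, -2.46 and -1.76 with water. Its lowest poly(I:C) array lay close to the highest array outside this setting, a water array at 15 °C for 3 h at -0.84.

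Some of the 31 followed each other closely over the arrays. After each probe was centred on its own mean over the 24 arrays, the SD of the difference between 2 probes had a median of 0.76 over the 465 pairs. The limits of the choice gave all 31 part of their shape, and no such value is given for pairs of other probes. The SDs are therefore a description. The smallest was 0.08, between CUST_10474_PI426483990 (contig JFC03356_1) and CUST_6886_PI426483990 (contig JFC16587_1), whose centred signals differed by at most 0.16 on any array. At 15 °C for 24 h with poly(I:C) the first had 0.42, -0.60 and 0.73 and the second 2.31, 1.15 and 2.51, so that both were lower on replicate 2 than on replicates 1 and 3. With water there they had -1.23, -1.39 and -1.51 for the first and 0.66, 0.40 and 0.38 for the second.

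The next pair, with an SD of 0.09, shares its contig number. CUST_30_PI426500383 (contig JFC08030_2) had 6.47, 6.27 and 6.18 with poly(I:C) and 4.30, 5.03 and 4.72 with water at 15 °C for 24 h. CUST_65_PI426500383 (contig JFC08030_1) had 5.47, 5.26 and 5.20 with poly(I:C) and 3.36, 4.13 and 3.77 with water. The files do not say whether the pair reads 1 transcript, and the 31 probes stand for 30 contig numbers. At 25 °C for 3 h the first probe had 5.51, 5.55 and 5.40 with poly(I:C) against 5.13, 4.91 and 5.16 with water, which did not overlap but differed by under 0.5 in the mean.

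The third pair, with an SD of 0.19, was CUST_13221_PI426483990 (contig JFC05170_1) and CUST_11825_PI426483990 (contig JFC18534_1), which have different contig numbers. The first had 0.25, 0.49 and 0.48 with poly(I:C) against -1.74, -1.60 and -1.53 with water at 15 °C for 24 h, and the second -0.16, 0.10 and 0.25 against -2.08, -1.80 and -1.51. Both differences were set by a high poly(I:C) group: it lay 1.90 and 1.95 above the mean of the 6 other groups, and water lay 0.13 below that mean for the first probe and 0.09 above it for the second. In both, the lowest group was poly(I:C) at 25 °C for 24 h, with means of -1.95 and -2.42.

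Probe pairs on 1 contig number did not always share the pattern. Contig JFC05201_2, read by CUST_4805_PI426483990, is one of the 31. The probe for JFC05201_1, which bears the same contig number, is not, with differences of 0.21 at 15 °C for 3 h, 0.60 at 15 °C for 24 h, 0.67 at 25 °C for 3 h and -0.16 at 25 °C for 24 h.

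**Figure D3:**
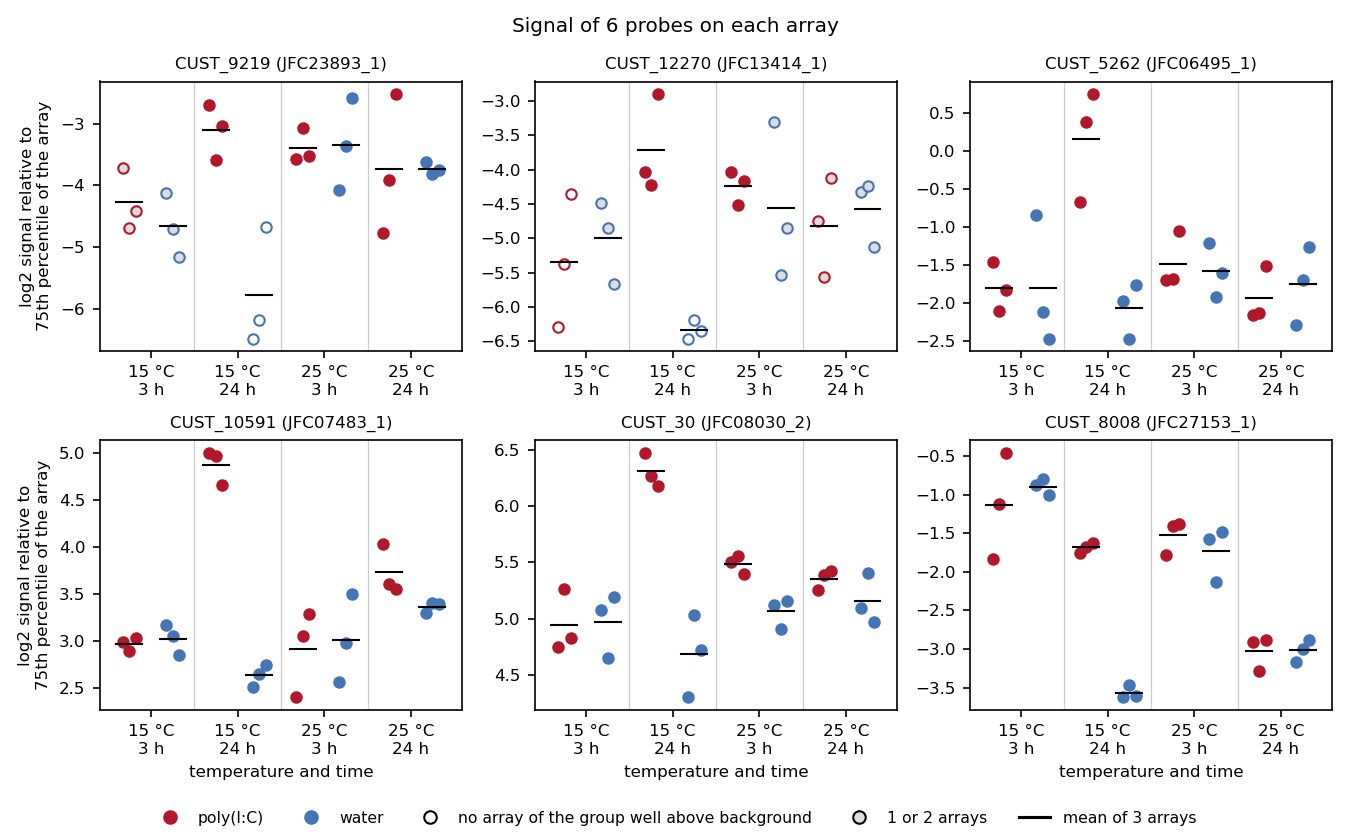
Log2 signal relative to the array's 75th percentile on each array for 6 of the 31 probes, by temperature and time, with poly(I:C) in red left of water in blue. Open and grey-filled points are groups in which none, or 1 or 2, of the arrays were well above background, and bars are means of 3 arrays. CUST_10591 (JFC07483_1) and CUST_30 (JFC08030_2) stand high with poly(I:C) at 15 °C for 24 h, whereas CUST_8008 (JFC27153_1) stands low with water there.

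The choice was repeated with the differences taken without replicate 1, 2 or 3 of each group, and the probes so chosen were read in the arrays left out. Eligibility still rested on all 3 arrays of a group, so the arrays left out had a part in the choice. The numbers serve here only to name arrays, and the labels do not say whether they pair them. Without replicates 1, 2 and 3 in turn, 31, 27 and 30 probes were chosen, of which 12, 14 and 13 were among the 31. Their median difference at 15 °C for 24 h was 1.75, 1.87 and 1.70 in the arrays used and 1.38, 1.73 and 1.27 in the arrays left out. The difference in the arrays left out was above 0 for 29 of 31, 26 of 27 and 26 of 30 probes, against 49.3%, 56.9% and 44.2% of the eligible probes. It was at least 1.5 for 14, 18 and 11 of the chosen probes, whereas 4.90%, 6.67% and 5.01% of the eligible probes reached 1.5 in the same arrays. Single probes ranged from -1.68 to 2.90. With eligibility also taken from the 2 arrays used, an alternative chosen after seeing the data, 31, 29 and 30 probes were chosen, with medians of 1.38, 1.63 and 1.27 in the arrays left out. Of them 14, 18 and 11 were at 1.5 or more, against 4.94%, 6.77% and 4.99% of the probes eligible in this way. With only probes well above background on all 16 arrays used, 17, 22 and 15 were chosen and 8, 15 and 8 of them were at 1.5 or more. Of the probes eligible in this way, 4.21%, 4.73% and 4.40% were.

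In the arrays left out, 2, 4 and 5 of the chosen probes stayed below 0.5 in all 3 other settings. Of the eligible probes, 28.8%, 31.1% and 24.1% did so in the same arrays. The whole set of limits was met again by 2, 2 and 3 of the chosen probes. Of the 13028 eligible probes, 24, 64 and 29 met it in the same arrays. Each value here compares 1 poly(I:C) array with 1 water array, which has a wider error than the means of 3 used in the choice.

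**Figure D4:**
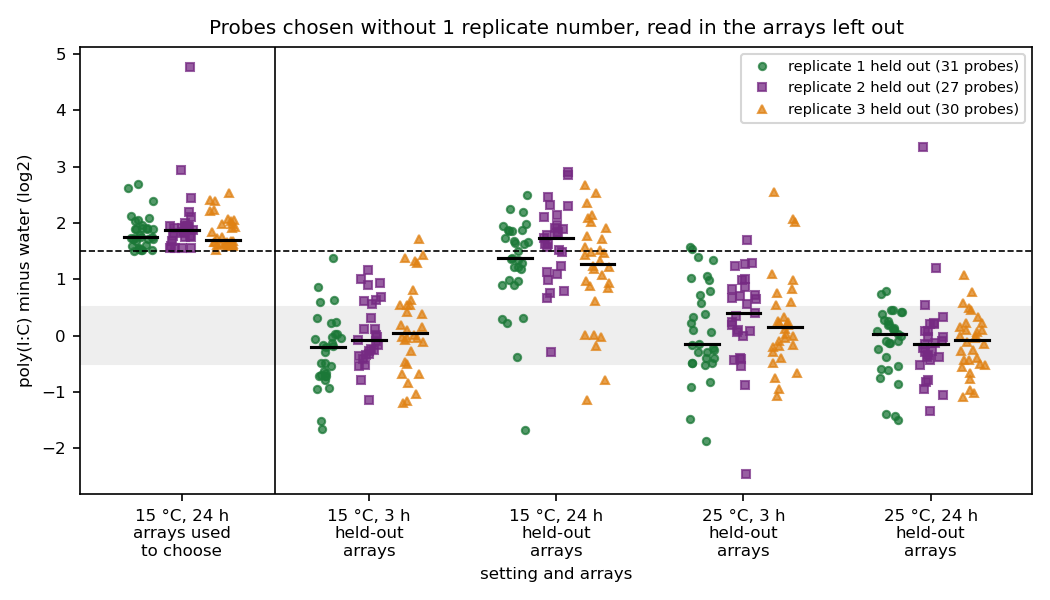
Poly(I:C) minus water (log2) for probes chosen without replicate 1 (green circles, 31), 2 (purple squares, 27) or 3 (orange triangles, 30). The left column shows 15 °C for 24 h in the arrays used to choose, and the 4 columns to its right show each setting in the arrays left out, with black bars for medians. The dashed line is the limit of 1.5 and the grey band is 0.5 on either side of 0: at 15 °C for 24 h the medians are 1.38, 1.73 and 1.27, and many probes lie outside the band elsewhere.

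The limits on the differences between poly(I:C) and water did not fix the level they share, but eligibility did ask for a level above background in 1 or more groups. Contigs JFC28325_1, JFC22272_1 and JFC05564_1, named here for this reason, were eligible through poly(I:C) at 15 °C for 24 h alone. They stay in the counts below, which are therefore not wholly free of the choice. JFC28325_1 was called at 3 h and the others in neither comparison. The mean of the 2 treatments was compared between temperatures at 3 h and between times at 25 °C, with limma across all 13379 tested probes and Benjamini-Hochberg adjustment over them, at an adjusted p under 0.05. At 3 h, 10 of the 31 probes (32.3%) were called higher at 25 °C than at 15 °C and 1 was called lower, while 23.4% of tested probes were called higher and 26.4% lower. The other 20 did not pass. The median change was 0.31 over the 31, 0.07 over the 14 fully measured probes and -0.01 over all tested probes. Of the 10, 4 were among the 14, 5 among the 15 and 1 was partly measured. All 12 arrays of the comparison were well above background for 5 of the 10.

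Among the 10 was CUST_13734_PI426483990 (contig JFC28325_1), which passed the filter on dim probes through poly(I:C) at 15 °C for 24 h alone. It was well above background on none of the 6 arrays at 15 °C for 3 h and on 2 of the 6 at 25 °C for 3 h. The lower bound of its change was -0.14 on the log2 scale, so neither size nor direction was established and no fold is given. Its signals were -4.85, -5.02 and -5.70 with poly(I:C) and -4.37, -5.45 and -4.56 with water at 25 °C for 3 h, against -6.58, -7.01 and -6.78 with poly(I:C) and -6.04, -6.10 and -7.25 with water at 15 °C for 3 h.

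Probe CUST_4805_PI426483990 (contig JFC05201_2), also higher at 25 °C, was well above background on every array. At 3 h it had 3.67, 3.59 and 3.61 with poly(I:C) and 3.09, 3.48 and 3.77 with water at 25 °C, against 2.79, 2.52 and 2.55 with poly(I:C) and 2.55, 2.41 and 1.74 with water at 15 °C. The 6 arrays at 25 °C all lay above the 6 at 15 °C, a log2 difference of 1.11 (SE 0.15, limma adjusted p = 6.1e-06). At 15 °C for 24 h it had 3.40, 3.78 and 3.49 with poly(I:C), against 2.04, 1.84 and 1.98 with water. The poly(I:C) mean there, 3.56, lay within the range of the 4 group means at 25 °C, which was 3.37 to 3.64.

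Probe CUST_8008_PI426483990 (contig JFC27153_1) was the one that was lower at 25 °C than at 15 °C at 3 h, with a log2 difference of -0.61 (SE 0.17, limma adjusted p = 0.0059). It had -1.78, -1.41 and -1.38 with poly(I:C) and -1.57, -2.13 and -1.48 with water at 25 °C, against -1.83, -1.12 and -0.45 with poly(I:C) and -0.88, -0.80 and -1.0 with water at 15 °C. The arrays of the 2 temperatures overlapped.

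The temperatures lay mostly on different slides at 3 h. With slide as a block, limma called 3 of the 31 higher at 25 °C and 0 lower, against 5.19% and 4.42% of tested probes. At an unadjusted p under 0.05 it had 7 higher and 0 lower, against 15.1% and 11.2% of tested probes. In that fit the change of CUST_4805_PI426483990 was 1.47 (limma adjusted p = 0.0033) and that of CUST_8008_PI426483990 did not pass (-0.39, limma adjusted p = 0.58). With normexp, limma called 1 higher and 0 lower, against 10.9% each of tested probes. It had 2 higher and 0 lower at an unadjusted p under 0.05, against 15.95% and 15.3% of tested probes. The change of CUST_8008_PI426483990 with normexp was -0.49 and was not called. Leaving out replicate 2 of poly(I:C) at 15 °C for 24 h, or replicate 1 of poly(I:C) at 25 °C for 24 h, gave 2 probes lower at 25 °C in place of 1.

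Between the times at 25 °C, more of the 31 were lower than higher at 24 h. At 24 h, 9 of the 31 (29.0%) were lower than at 3 h and 1 was higher, against 16.4% and 21.5% of tested probes, and 21 did not pass. Of the 9, 7 belonged to the 14 fully measured probes and 2 to the 15. The median change was -0.34 over the 31 and 0.04 over all tested probes. All 12 arrays were well above background for 7 of the 9. With slide as a block 5 were lower and 1 higher, against 11.9% and 17.3%. With normexp, limma called 1 lower and 0 higher, against 7.77% and 12.1%. It had 1 lower and 2 higher at an unadjusted p under 0.05, against 11.6% and 21.8% of tested probes. The changes of CUST_8008_PI426483990, CUST_10591_PI426483990 and CUST_3125_PI426483990 were then -0.46, 0.42 and 0.28, none of them called, and that of the last had turned its sign.

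The largest fall was that of CUST_8008_PI426483990 (contig JFC27153_1). At 25 °C it had -2.91, -3.28 and -2.88 with poly(I:C) and -3.17, -3.00 and -2.89 with water at 24 h, against the higher values at 3 h given above, and no array at 24 h overlapped those at 3 h. The change was -1.40 (SE 0.17, limma adjusted p = 2.9e-06; with slide as a block, limma adjusted p = 0.00019). At 15 °C for 24 h it had -1.76, -1.67 and -1.62 with poly(I:C) and -3.63, -3.47 and -3.61 with water. Its poly(I:C) mean there, -1.68, was below both group means at 15 °C for 3 h, -1.13 with poly(I:C) and -0.89 with water. Of the difference of 1.89 at 15 °C for 24 h, 0.20 was poly(I:C) above the mean of the 6 other groups and 1.68 was water below it.

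The other named fall was that of CUST_3125_PI426483990 (contig JFC10511_1), -1.04 (SE 0.34, limma adjusted p = 0.020), and it was well above background on 3 of 6 arrays at 24 h and on 4 of 6 at 3 h. It had -5.36, -4.46 and -6.75 with poly(I:C) and -5.26, -5.35 and -5.98 with water at 24 h, against -4.04, -4.66 and -4.34 with poly(I:C) and -4.75, -4.57 and -4.56 with water at 3 h. The call was lost without replicate 3 of water at 25 °C for 24 h (limma adjusted p = 0.053), without replicate 3 of poly(I:C) at 25 °C for 24 h (limma adjusted p = 0.063) and with slide as a block (limma adjusted p = 0.11). Over all settings in which 1 array was left out, its change lay between -1.30 and -0.73.

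Probe CUST_10591_PI426483990 (contig JFC07483_1) was the one that rose between 3 h and 24 h at 25 °C. It had 4.03, 3.60 and 3.55 with poly(I:C) and 3.29, 3.40 and 3.40 with water at 24 h, against 2.4, 3.05 and 3.28 with poly(I:C) and 2.56, 2.97 and 3.5 with water at 3 h. The change was 0.59 (SE 0.15, limma adjusted p = 0.0048; with slide as a block, limma adjusted p = 0.0056). The group means of CUST_10591_PI426483990 went from 2.91 to 3.73 with poly(I:C) and from 3.01 to 3.36 with water. In water alone, whose arrays at 25 °C all lay on slide 3, its change was 0.35 and did not pass (limma adjusted p = 0.50). The change of CUST_3125_PI426483990 in water alone was -0.90 (limma adjusted p = 0.44). These are changes in 1 treatment, so they cannot be set against the changes in the mean of 2. The spread of that fit also used the poly(I:C) arrays of slide 3 at 25 °C for 24 h. Leaving out replicate 2 of poly(I:C) at 15 °C for 24 h gave 2 probes higher at 24 h.

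**Figure D5:**
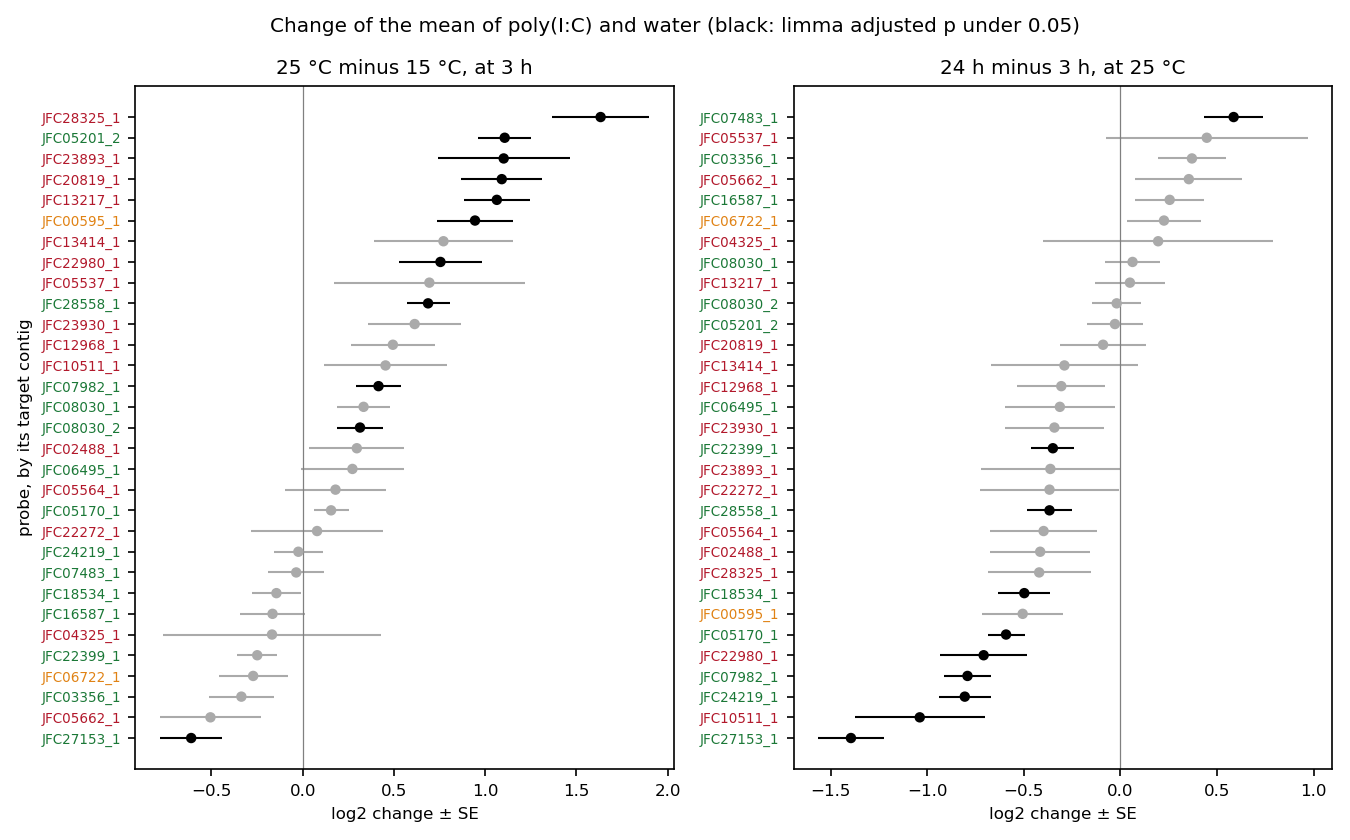
Log2 change, with its SE, of the mean of poly(I:C) and water for each of the 31 probes: 25 °C minus 15 °C at 3 h on the left and 24 h minus 3 h at 25 °C on the right, each sorted by size. Black points passed limma's test over all tested probes, and code colours are green for the 14 fully measured probes, orange for the 2 partly measured and red for the 15 without a measured water level at 15 °C for 24 h. On the left 10 probes are called higher and 1 lower at 25 °C, and on the right 9 are called lower and 1 higher at 24 h. The 10 include JFC28325_1, eligible through poly(I:C) at 15 °C for 24 h alone, whose size and direction of change were not established.

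At 15 °C for 24 h the treatments lay on different slides, poly(I:C) on slide 1 and water on slide 2, and only water at 15 °C for 3 h bridged those slides. At 25 °C for 3 h they did so too, poly(I:C) on slide 2 and water on slide 3, and only poly(I:C) at 25 °C for 24 h bridged those. With slide as a block, the difference at 15 °C for 24 h had a median of 1.73 over the 31, from -0.66 to 2.29. Its SE ran from 0.21 to 1.60, against 0.14 to 0.84 without the block. The bridge between slides 1 and 2 was replicates 1 and 2 of water at 15 °C for 3 h on slide 1 and replicate 3 on slide 2. In that fit 22 of the 31 were at 1.5 or more: 11 of the 14, both partly measured probes and 9 of the 15. No share of eligible probes is given for this count, so it is a description. All the limits of the choice were met by 10 of the 31 in that fit: 5 of the 14, both partly measured probes and 3 of the 15. The difference at 25 °C for 3 h was then over 0.5 in size for 12 of the 31 and 7 of the 14. The 12 included JFC23893_1 (1.497), JFC07483_1 (-0.55), JFC05170_1 (-0.69), JFC18534_1 (-1.03), JFC08030_2 (0.57), JFC16587_1 (-0.55), JFC05201_2 (0.67) and JFC22272_1 (0.65). At 15 °C for 3 h, 5 of the 31 were over 0.5 in size and at 25 °C for 24 h 3, all among the 15. For CUST_5262_PI426483990 (contig JFC06495_1) the difference at 15 °C for 24 h in that fit was 1.23 (SE 0.70), and for CUST_4805_PI426483990 (contig JFC05201_2) 0.87. On each array the spots of the 31 were spread over rows 10 to 189 of 192 and columns 1 to 82 of 82, and none was saturated. The 259 eligible spots next to them had a median difference of 0.14 at 15 °C for 24 h, against -0.001 over all eligible probes. Of those spots, 4.25% were at 1.5 or more, near the 4.54% of all eligible probes. A part of spot position was not tested.

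Across the series, the 75th percentile of the signal was 348.1 to 863.5 units per array, 78.5% to 95.0% of probes were well above background, and arrays of a group correlated over probes at 0.963 to 0.989. The number of arrays limits the precision of each value.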

How the data were processed

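Spleen RNA was hybridised to 24 single-colour arrays. The deposited scanner files give each spot's intensity after background subtraction by Agilent Feature Extraction, with no scaling between arrays, per the file headers, which name version 10.7.3.1, while the submitters' processing notes name 9.5.3.1. The authors also deposited a table of log2 values, from which the 31 probes were chosen. Its scale and direction matched those of log2 processed signal minus the array's 75th percentile, with 100% of values within 0.02 once 1 constant had been taken off each probe. How each probe was centred is unknown, and the column medians ran from -0.16 to 0.11. No pair of arrays held identical values.

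Levels and tests used log2 processed signal minus the 75th percentile, without control spots and spots with outlier marks (2 to 22 per array). Group means of all 24 arrays were fitted with limma 3.58.1 in R 4.3.3 (16 residual degrees of freedom, prior 2.65) over 13379 probes well above background on all 3 arrays of a group. 1102 probes were left out. The code was tested on simulated data. Alternatives were quantile and median scaling, normexp (offset 50, on the median spot signal), the filter on dim probes, the limits of the choice, the slide, the replicate number as a block and leaving out each array. Those of the held-out arrays, the order of groups, the median difference, the restriction to measured water levels and the normexp signal column were chosen after seeing the data.

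The members and lists were chosen with earlier results of these data known. The naming rule took the 2 probes with the largest difference at 15 °C for 24 h whose arrays did not overlap and, per test, the 2 largest called changes in each direction. Exceptions are marked in the text.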

Additional observations from a re-analysis of the deposited data

Results flagged for a closer look

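Outside the contig probes, 3 probes whose targets are named by a database sequence met the same limits. Their poly(I:C) minus water differences at 15 °C for 24 h were 2.45, 2.21 and 2.16 on the log2 scale. They drew attention because the choice of the 31 allowed contig probes only. They lie on the same 24 arrays, and the limits require their place above water, so they are not separate data. The 13379 tested probes hold such database probes besides the 13028 eligible contig probes. All 3 probes were well above background on the 3 water arrays at 15 °C for 24 h, and poly(I:C) at 15 °C for 24 h had the highest of the 8 group means for each. Among contig probes well above background on all 24 arrays, 19.6% showed this, and 64.5% of those raised by at least 1.5. The limits picked these probes too, so the values are a description without a test.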

How the results depend on the processing

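Signal over background limited the results: 15 of the 31 probes had no measured water level at 15 °C for 24 h. Against 31 probes, the choice gave 14 when only probes well above background in all 3 of those water arrays were allowed, and 14 when all 24 arrays had to be. It gave 126 with a difference of at least 1, 8 with at least 2, 9 with other differences below 0.3 and 61 with below 0.7. Quantile normalization gave 18 (14 shared with the 31), normexp 14 (6 shared), median scaling 29 (22 shared) and slide as a block 40 (10 shared). Leaving out each array gave 22 to 37 probes, of which 21 to 30 were shared, and 4 of the 31 were chosen in all 24 such repeats. The median difference over the 31 at 15 °C for 24 h, 1.73, was 0.63 with normexp and 1.68 to 1.84 without each array. Poly(I:C) at 15 °C for 24 h was the highest group for 12 of the 14 fully measured probes under every scaling, normexp and leaving out each array, and lay above all other arrays for 9 with normexp, in place of 11. Normexp here changed the background correction, the spot signal used and, by an offset, the scale of dim probes. The part of each in these changes was not tested. In the arrays left out of the differences, 48.9% of the chosen probes were at 1.5 or more, against 4.90% to 6.67% of eligible probes. This share pools the 3 choices and counts a probe each time it was chosen. Eligibility there still used all 3 arrays of a group, and poly(I:C) and water stayed on different slides, so the share is a description. The share of the chosen was 41.1% to 56.7% under the other scalings and normexp. It was 47.8% with eligibility from the arrays used, against 4.94% to 6.77%. With only probes well above background on all of those arrays it was 57.4%, against 4.21% to 4.73%.

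For temperature at 3 h, in place of 10 higher and 1 lower, normexp called 1 and 0, slide as a block 3 and 0, and the 14 probes well above background on all arrays held 4 higher. Leaving out each array gave 9 to 13 higher and 1 to 2 lower. For time at 25 °C, in place of 1 higher and 9 lower, normexp called 0 and 1 and slide as a block 5 lower. An adjusted p under 0.01 left 5 lower. The change in water alone, on slide 3, gave 0 and 1, where 54 of all tested probes were called higher and 58 lower. Replicates 2 and 3 of poly(I:C) at 25 °C for 24 h, on the same slide, also entered the spread of that fit. At an unadjusted p under 0.05 that fit gave 0 and 6, against 10.3% and 6.28% of tested probes. No share of tested probes is given for the 14 probes, the stricter threshold, the arrays left out or the replicate block. Leaving out each array gave 1 to 2 higher and 7 to 10 lower. The change of CUST_3125_PI426483990 between 3 h and 24 h at 25 °C was 0.28 with normexp, the reverse of -1.04, and the cause was not tested. Same-numbered arrays deviated from their group means with correlations of -0.16 to 0.19 (median 0.03), and arrays of different numbers with -0.28 to 0.23 (median -0.001). No pairing by number was seen, though so few arrays cannot exclude one. With the replicate block the counts were 31 probes chosen, 9 higher and 1 lower for temperature, and 1 higher and 9 lower for time.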
